A study of Mus musculus with 6 samples.

Results

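The receptors that signal through the common gamma chain were examined in activated CD8 T cells of aged and young mice. The set held 8 genes, chosen by symbol and listed for all 6 libraries, out of 25654 gene identifiers with a value. They were Il2rg, which encodes the common gamma chain itself, and its partner chains Il2ra, Il2rb, Il7r, Il4ra, Il21r, Il15ra and Il9r. CD8 T cells, which kill cells that carry a pathogen or a tumour antigen, had been taken from spleens of wild-type (WT) female C57BL/6 mice of around 65 weeks (Aged) and of 6 weeks (Young). Both groups had been stimulated for 2 days in IL-2 at 10 ng/ml on plates coated with 3 µg/ml of an anti-TCR and 1 µg/ml of an anti-CD28 antibody, and then held in IL-2 at the same concentration for 5 more days. All libraries, Aged and Young, are therefore from cells fed with a ligand of Il2ra, Il2rb and Il2rg. There were 3 libraries per group, which the labels number as biological replicates without tying them to single mice or cultures, so p-values measure the spread between these libraries, which may be technical.

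As background, these receptors share a signalling chain that binds the kinase JAK3. The partner chains decide which cytokine is bound, and some of them recruit JAK1. IL-2 is bound by IL-2Rα, IL-2Rβ and the common chain together, IL-15 by IL-2Rβ and the common chain with IL-15Rα usually presenting the cytokine, and IL-7, IL-4, IL-9 and IL-21 each by a private chain with the common chain. The signal passes to STAT proteins, mainly STAT5 for IL-2, IL-7, IL-9 and IL-15, STAT6 for IL-4 and STAT3 for IL-21. In CD8 T cells IL-7 and IL-15 are known for keeping naive and memory cells alive, and IL-2 for driving growth and effector function after activation.

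Values are CPM, read counts scaled by the authors to one common library total, from a kit that reads the 3' end of each transcript, so that a gene's value does not grow with its length. The libraries held 1952552 to 2785915 reads, and 1 read was worth 0.359 to 0.512 CPM. The CD8 T cell label was set against its markers. Cd8a stood at 244 to 344 CPM in Aged and 266 to 276 CPM in Young libraries, while Cd4 was at 0 to 0.383 CPM in Aged and 0 to 0.384 CPM in Young. Of 6 CD3 and CD8 genes 4 fell in aged cells (Cd3d, Cd3e, Cd3g and Cd8b1) and Cd8a and Cd247 did not pass, where 12.5% of all genes tested were called lower. Their summed level was 1639 to 1819 CPM in Aged against 2066 to 2165 CPM in Young libraries. Of 5 B cell markers, Cd79a, Ms4a1 and Pax5 were at 0 in every library, and the sum of the list was 0 to 1.53 CPM in Aged and 2.51 to 9.99 CPM in Young. Cd79b, the most abundant of them, fell, at 0.982 ± 0.852 CPM in Aged and 6.34 ± 3.74 CPM in Young (SD, n = 3 each; limma adjusted p = 0.00515). The 4 erythroid markers summed to 1.15 to 4.24 CPM in Aged and 10.0 to 22.3 CPM in Young, with Hbb-bs at 0 throughout. Hbb-bt, the most abundant of them, fell, at 0 in every Aged library and 7.97 ± 2.99 CPM in Young (SD, n = 3; limma adjusted p = 9.45e-06), while Hba-a1 and Hba-a2 did not pass. Of 3 platelet markers, Pf4 and Ppbp were at 0 throughout, and Itga2b was at 0.435 CPM in Young replicate 1 and at 0 in every other library. The 7 myeloid markers summed to 4.60 to 10.8 CPM in Aged and 3.23 to 4.995 CPM in Young, with Lyz2, Adgre1 and Flt3 at 0 throughout. Itgam was the called member of that list and fell, at 0.442 ± 0.473 CPM in Aged and 3.08 ± 1.49 CPM in Young (SD, n = 3 each; limma adjusted p = 0.0204), a call lost without Aged replicate 1 (-1.24), Young replicate 1 (-1.25) or Young replicate 3 (-1.38) and with DESeq2 (-2.82). Csf1r was at 7.06 CPM in Aged replicate 3 and at 0 in every other library. Itgax and Cd14 had higher means in Aged. Itgax was at 2.32 ± 0.770 CPM in Aged and 0.871 ± 0.789 CPM in Young and did not pass (limma adjusted p = 0.155). Cd14, at 1.56 ± 1.11 CPM in Aged and 0.384 ± 0.362 CPM in Young, was too low to test. The most abundant marker of helper T cells, Zbtb7b, was at 8.94 to 14.9 CPM in Aged and 16.9 to 23.0 CPM in Young. Zbtb7b fell (limma adjusted p = 0.0241). The call was lost with DESeq2 (-0.76) and without Aged replicate 3 (-0.48), Young replicate 1 (-0.63) or Young replicate 2 (-0.62). Cd40lg of that list went the other way without overlap, at 1.02 to 2.35 CPM in Aged against 0.359 to 0.768 CPM in Young libraries. Cd40lg did not pass (limma adjusted p = 0.220). Foxp3, too low to test, reached 3.07 CPM among Aged and 1.54 CPM among Young libraries. Of the 4 NK cell markers, Klrb1c was at up to 17.9 CPM in Aged and 26.5 CPM in Young and did not pass, and Klre1 rose, at 16.4, 12.7 and 10.4 CPM in Aged replicates 1, 2 and 3, against 3.91, 4.67 and 0.768 CPM in Young replicates 1, 2 and 3 (limma log2 fold change 1.92, adjusted p = 0.000646). In the same list Klra8 was at 0 throughout and Ncr1 at 0 in all Aged and in 2 Young libraries, and the list summed to 24.5 to 33.8 CPM in Aged and 21.1 to 30.4 CPM in Young. Mast cell and basophil markers summed to 10.8 to 16.9 CPM in Aged and 11.5 to 16.9 CPM in Young, with Fcer1a and Ms4a2 at 0 throughout. Within that sum Cpa3 fell, at 1.75 ± 1.52 CPM in Aged and 7.39 ± 2.83 CPM in Young (SD, n = 3 each; limma adjusted p = 0.00655), and Mcpt8 was at 11.3 ± 4.97 CPM in Aged and 6.65 ± 0.268 CPM in Young, without overlap and without passing (limma adjusted p = 0.122). Whether these marker reads came from other cells or from the CD8 T cells was not tested, nor was their part in the results below.

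The receptors fell into an abundant set and a barely detected pair. Il2rb was the most abundant, averaging 1038 ± 46.5 CPM in Aged and 1035 ± 12.3 CPM in Young libraries (SD, n = 3 each), and only 1.39% of the 10511 genes tested had a higher mean level. The IL-2 receptor chains made up the top of the order. Il2ra came next, at 750 ± 94.2 CPM in Aged and 857 ± 61.7 CPM in Young, and Il2rg after it, at 380 ± 16.7 CPM in Aged and 413 ± 3.29 CPM in Young. Below these, Il4ra averaged 226 ± 13.1 CPM in Aged and 255 ± 5.77 CPM in Young, Il7r 196 ± 57.5 CPM in Aged and 250.3 ± 59.6 CPM in Young, and Il21r 186 ± 16.0 CPM in Aged and 175 ± 7.37 CPM in Young. The barely detected pair lay far below. Il15ra was at 2.62 ± 1.5 CPM in Aged and 2.0 ± 0.961 CPM in Young, and Il9r was at 0 in all libraries but 1. The order of the means was the same in both groups. Il4ra and Il7r overlapped in both groups, Il7r and Il21r overlapped in Aged but not in Young libraries, and no other neighbours in the order overlapped in either group.

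**Figure D1:**
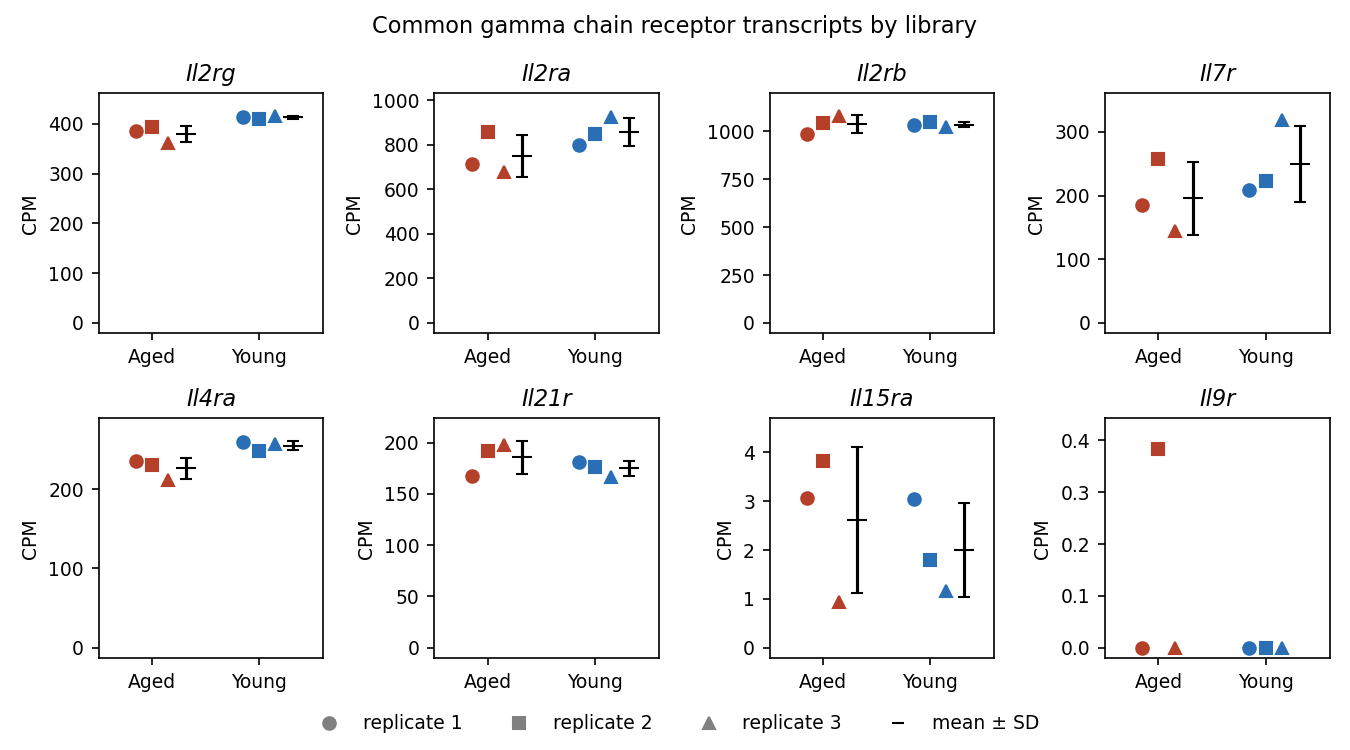
Level of each common gamma chain receptor transcript in CPM (vertical axes, linear and different for each gene) in Aged (red) and Young (blue) libraries, with a point per library, its shape giving the replicate, and a bar for mean ± SD (none for Il9r). The Aged libraries lie below all Young libraries for Il2rg and Il4ra, and overlap them for the other genes.

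None of the receptors passed the test between age groups. With limma on log2(CPM + 1) and Benjamini-Hochberg adjustment over all genes, 0 of the 7 receptors tested were called at an adjusted p under 0.05, against 28.7% of all genes tested, and Il9r was too low to test. At an unadjusted p under 0.05 there were 3 of 7, Il2ra, Il4ra and Il7r, against 38.7% of all genes. The median log2 fold change, Aged minus Young, was -0.12 over the 7 receptors and 0.03 over all genes. With limma after RLE scaling 2 were called lower (14.6% of all genes were called lower), after TMM scaling 3 (14.7%) and after upper-quartile scaling 3 (14.2%), and without Aged replicate 2 there were 2 (10.9%). On the recovered reads, edgeR called Il2ra and Il4ra lower (14.8% of all genes were called lower), DESeq2 called Il2ra (9.65%) and limma-voom called Il2ra, Il4ra and Il2rg (14.5%). Both edgeR and limma-voom rescaled the libraries by TMM and DESeq2 by its own factors, so the tool did not change alone from the reported fit. Calls of these small differences therefore moved with the scaling and the tool, and 0 receptors were called higher by any of them. In bulk samples fewer cells of a type and less RNA per cell cannot be told apart, so a lower level here is a lower share of the library's transcripts.

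The shared chain was slightly lower in every Aged library, without passing the test. Il2rg (ENSMUSG00000031304, chromosome X, 101264378 to 101268255, minus strand, GRCm38) stood at 385, 393 and 361 CPM in Aged replicates 1, 2 and 3, against 413, 410 and 416 CPM in Young replicates 1, 2 and 3. Every Aged library was below every Young library, and the Young libraries spanned only 410 to 416 CPM. The mean was 8.06% lower in aged cells, with a log2 fold change of -0.12 ± 0.06 (SE; 95% interval -0.25 to 0.01; limma adjusted p = 0.159). Groups did not overlap for 2 of the 7 receptors, Il2rg and Il4ra, both lower in aged cells, against 40.9% of all genes, 22.5% higher and 18.3% lower. Exons of the gene model Gm20489 overlap those of Il2rg on the same strand, and Gm20489 was at 0 in every library. The last 300 bases of 2 of the 4 Il2rg transcripts also resemble Gm20489, by the measure given below for Il7r. How the counting treated reads shared by both is not given in the sources used here, so the 0 does not show that none were lost.

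Il4ra, the chain that binds IL-4 and, with Il13ra1, IL-13, was the other receptor without overlap. Il4ra (ENSMUSG00000030748, chromosome 7, 125552120 to 125579474, plus strand) stood at 236, 231 and 211 CPM in Aged replicates 1, 2 and 3, against 259, 248 and 257 CPM in Young replicates 1, 2 and 3. The mean was 11.3% lower in aged cells, with a log2 fold change of -0.17 ± 0.07 (SE; 95% interval -0.32 to -0.02; limma adjusted p = 0.0787; edgeR adjusted p = 0.0239). The stretches just upstream of these 2 genes are shown because both were lower in every Aged library. They come from RefSeq on GRCm38.p6, read 5′ to 3′ on the gene's strand and end before the first base of any annotated exon of the gene.
Il2rg, chrX:101268256-101268505: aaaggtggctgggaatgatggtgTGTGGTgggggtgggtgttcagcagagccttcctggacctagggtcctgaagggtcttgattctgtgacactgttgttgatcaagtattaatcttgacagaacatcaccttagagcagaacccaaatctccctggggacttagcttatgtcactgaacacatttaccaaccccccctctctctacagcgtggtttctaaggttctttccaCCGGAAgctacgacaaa
Il4ra, chr7:125552021-125552119: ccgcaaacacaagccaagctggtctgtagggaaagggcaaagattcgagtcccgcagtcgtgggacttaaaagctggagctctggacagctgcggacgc
Capitals mark matches to 5 short motifs searched on both strands in windows of 300 bases, from 250 before to 50 after the RefSeq start. These were TTCNNNGAA, bound by STAT dimers and held by 8.30% of 32851 such windows of all genes, TTC and GAA with 4 bases of any kind between them, the spacing of STAT6 (6.95%), GTAAACA, of forkhead factors (3.65%), TGTGGT, of RUNX factors (16.8%), and CCGGAA, of ETS factors (14.9%). The Il2rg stretch held 1 RUNX and 1 ETS match, and the Il4ra window held 0 of the 5 motifs. These matches describe letters in the window and say nothing of binding in these cells.

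The IL-2 binding chains differed from each other in their spread. Il2rb (ENSMUSG00000068227, chromosome 15, 78479256 to 78495271, minus strand), which carries the signal of IL-2 and IL-15, stood at 988, 1045 and 1080 CPM in Aged replicates 1, 2 and 3, against 1035, 1048 and 1024 CPM in Young replicates 1, 2 and 3. The groups overlapped fully, with a log2 fold change of 0.00 (95% interval -0.11 to 0.11; limma adjusted p = 0.983). With TMM scaling the value was -0.05 (95% interval -0.17 to 0.07), and its sign turned with the other scalings too. Il2ra (ENSMUSG00000026770, chromosome 2, 11642807 to 11693193, plus strand) encodes the high-affinity chain CD25, which activation and IL-2 itself are known to induce. It stood at 714, 857 and 679 CPM in Aged replicates 1, 2 and 3, against 801, 846 and 923 CPM in Young replicates 1, 2 and 3. Aged replicates 1 and 3 lay below all Young libraries, and Aged replicate 2 lay among them. The mean was 12.5% lower in aged cells, with a log2 fold change of -0.20 ± 0.08 (SE; 95% interval -0.35 to -0.04; limma adjusted p = 0.0565; edgeR adjusted p = 0.0247). Without Aged replicate 2 the log2 fold change was -0.30 and the gene was called lower (limma adjusted p = 0.00219), and without Aged replicate 3 it was -0.13 (adjusted p = 0.251).

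Il7r, the private chain of IL-7 and, with Crlf2, of TSLP, varied most among the abundant receptors. Il7r (ENSMUSG00000003882, chromosome 15, 9505788 to 9530176, minus strand) stood at 185, 258 and 144 CPM in Aged replicates 1, 2 and 3, against 209, 224 and 319 CPM in Young replicates 1, 2 and 3. Aged replicate 2 was above Young replicates 1 and 2, and Young replicate 3 was above all other libraries. The mean was 21.7% lower in aged cells, with a log2 fold change of -0.37 ± 0.16 (SE; 95% interval -0.69 to -0.04; limma adjusted p = 0.0885). Single libraries set the size of this difference: it was -0.58 without Aged replicate 2, where Il7r was called lower (limma adjusted p = 0.00179), -0.17 without Aged replicate 3 and -0.18 without Young replicate 3. TMM and upper-quartile scaling called it lower (-0.42 and -0.41; adjusted p = 0.0486 and 0.0477), while edgeR (adjusted p = 0.0643) and DESeq2 (adjusted p = 0.459) did not. The last 300 bases of 2 of its 4 annotated transcripts hold a stretch at least 60 bases long and 90% identical to transcripts of 17 other genes, and how the counting treated reads with several matches is not given in the sources used here.

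Il2ra and Il7r ranked the libraries alike. From low to high, both gave Aged replicate 3, Aged replicate 1, Young replicate 1, Young replicate 2, Aged replicate 2 and Young replicate 3. The order thus crossed the age groups at Aged replicate 2. Of the 8616 genes whose mean reached 5 CPM, 11 (0.128%) had this order, Il2ra and Il7r included. The 6 libraries can stand in many orders, so few genes would hold any given order even at random. The small share alone does not set this pair apart. The pattern was noticed after the values were seen and all these values share the same 6 libraries, so it is given as a description. The upstream stretch of Il2ra, and the 30 bases around the 1 STAT motif in the Il7r window, are shown for this pair, from RefSeq on GRCm38.p6.
Il2ra, chr2:11642542-11642791, plus strand: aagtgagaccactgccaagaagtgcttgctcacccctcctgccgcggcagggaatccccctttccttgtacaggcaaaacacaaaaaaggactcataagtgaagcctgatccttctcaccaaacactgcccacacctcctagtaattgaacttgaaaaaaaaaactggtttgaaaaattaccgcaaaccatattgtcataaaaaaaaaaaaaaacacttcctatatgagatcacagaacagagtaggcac
Il7r, chr15:9529999-9530028, minus strand: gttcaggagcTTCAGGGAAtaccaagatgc
The Il7r motif began 142 bases upstream of the RefSeq start, but within the annotated span of the gene (9505788 to 9530176). It therefore does not lie ahead of every annotated start, unlike the stretches shown for the other genes. The Il7r window also held 1 RUNX motif. The Il2ra window held 0 of the 5 motifs, which says nothing of sites elsewhere in the gene.

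**Figure D2:**
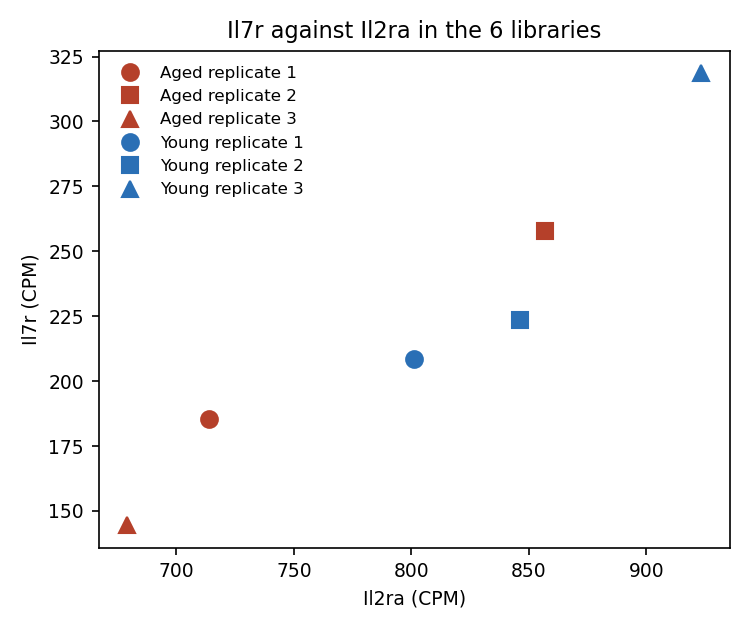
Il7r (vertical axis, CPM) against Il2ra (horizontal axis, CPM), with a point for each of the 6 libraries, Aged in red and Young in blue, its shape giving the replicate; the axes do not start at 0. Both genes order the libraries in the same way, from Aged replicate 3 (679 CPM of Il2ra and 144 CPM of Il7r) to Young replicate 3 (923 and 319 CPM), with Aged replicate 2 among the Young libraries.

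Il21r, the private chain of IL-21, showed no age difference beyond its spread. Il21r (ENSMUSG00000030745, chromosome 7, 125603429 to 125633570, plus strand) lies 23954 bases downstream of Il4ra on the same strand. It stood at 167, 192 and 198 CPM in Aged replicates 1, 2 and 3, against 181, 176 and 167 CPM in Young replicates 1, 2 and 3, so that 2 Aged libraries were above all Young libraries and the lowest Aged library lay within their range. Its log2 fold change was 0.08 ± 0.08 (SE; 95% interval -0.09 to 0.26; limma adjusted p = 0.495). The last 300 bases of 2 of its 3 transcripts resemble transcripts of 10 other genes by the measure given for Il7r.

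Il15ra and Il9r were at the limit of the depth. Il15ra (ENSMUSG00000023206, chromosome 2, 11705290 to 11734317, plus strand), which binds and presents IL-15, lies 12096 bases downstream of Il2ra on the same strand. It had 6, 10 and 2 reads in Aged replicates 1, 2 and 3 (3.07, 3.83 and 0.941 CPM), against 7, 5 and 3 reads in Young replicates 1, 2 and 3 (3.04, 1.79 and 1.15 CPM). The groups overlapped, and the log2 fold change of 0.22 had a 95% interval of -0.69 to 1.12 (limma adjusted p = 0.761). With a pseudocount of 0.1 the interval was -1.14 to 1.68, so neither a 2-fold higher nor a 2-fold lower level in aged cells was excluded at this depth. Il9r (ENSMUSG00000020279, chromosome 11, 32187541 to 32200279, minus strand), the IL-9 chain, had 1 read in Aged replicate 2 (0.383 CPM) and 0 in every other library. Over the 3 Aged libraries this was 0.150 CPM, with an exact Poisson 95% interval of 0.00379 to 0.833 CPM, and 0 reads in the 3 Young libraries had an exact Poisson upper limit of 0.480 CPM. The level that 3 reads over the group would give was 0.449 CPM in Aged and 0.390 CPM in Young. These bounds cover counting error only, and no fold is given for Il9r.

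The balance of partner chains and common chain was then compared within each library, which does not depend on how libraries are scaled to each other. The Il2rb to Il2rg ratio of CPM was 2.57, 2.66 and 2.99 in Aged replicates 1, 2 and 3, against 2.51, 2.56 and 2.46 in Young replicates 1, 2 and 3. All Aged libraries were above all Young libraries, the nearest pair by a narrow margin, and the log2 difference was 0.12, or 0.06 without Aged replicate 3. An exact permutation test, two-sided, gave p = 0.1, the smallest that 3 against 3 libraries allow, and adjusted p = 0.4 over the 6 ratios compared. The Il21r to Il2rg ratio was 0.490 ± 0.0561 in Aged and 0.423 ± 0.020 in Young libraries (SD, n = 3 each), and overlapped (exact permutation p = 0.2, adjusted p = 0.4). The Il4ra to Il2rg ratio was 0.596 ± 0.0158 in Aged and 0.618 ± 0.0105 in Young libraries (exact permutation p = 0.2, adjusted p = 0.4). Il2ra per Il2rg was 1.97 ± 0.179 in Aged and 2.08 ± 0.140 in Young (exact permutation p = 0.5, adjusted p = 0.6), and Il7r per Il2rg 0.513 ± 0.131 in Aged and 0.606 ± 0.140 in Young (exact permutation p = 0.4, adjusted p = 0.6). With 3 libraries per group this test cannot give a p under 0.05, so no ratio could have been called. The ratios are given as a description.

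**Figure D3:**
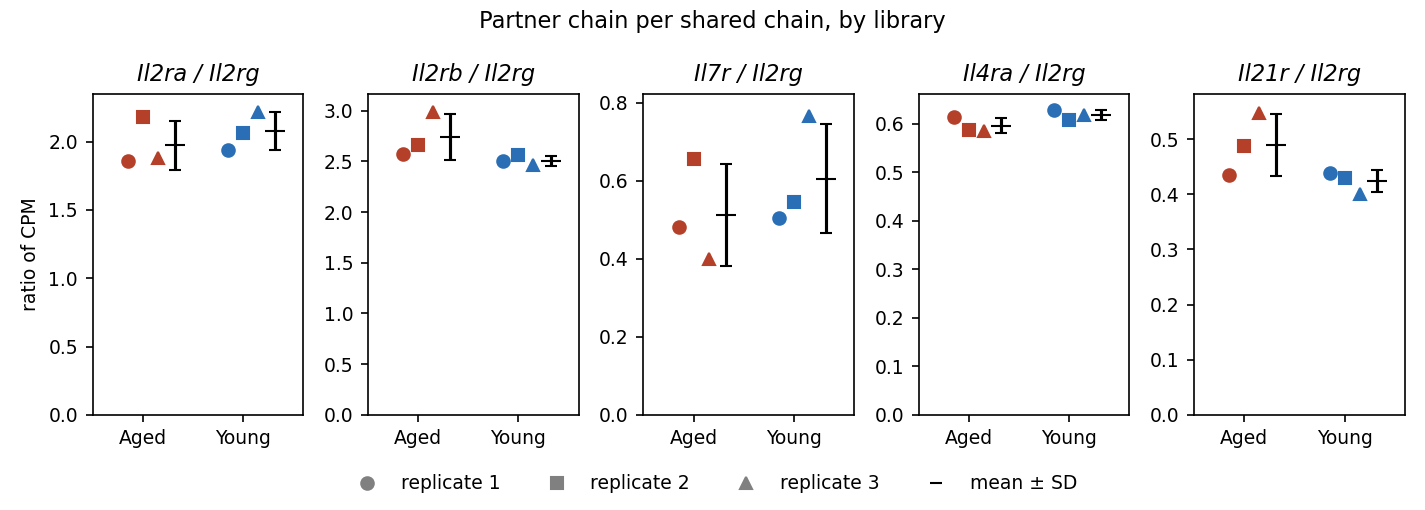
Ratio of the CPM of 5 partner chains to that of Il2rg (vertical axes, linear from 0, different for each chain) in Aged (red) and Young (blue) libraries, with a point per library, its shape giving the replicate, and a bar for mean ± SD. Il2rb per Il2rg is 2.57 to 2.99 in Aged and 2.46 to 2.56 in Young libraries, and the groups overlap for the other 4 chains.

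The ligands of these receptors were low or at 0 in the cells themselves. Of 8 listed ligand genes, Il7, Il9, Il15, Il21 and Tslp were at 0 in every library. Il4 was at 0.512, 1.92 and 0 CPM in Aged replicates 1, 2 and 3, against 0.435, 0 and 0 CPM in Young replicates 1, 2 and 3, with 5 reads in Aged replicate 2 and at most 1 read in each other library. Il2 was at 1.54, 4.22 and 8.0 CPM in Aged replicates 1, 2 and 3, against 4.35, 0.359 and 2.31 CPM in Young replicates 1, 2 and 3, and did not pass (limma adjusted p = 0.279). Il13, whose receptor includes the Il4ra chain, rose in aged cells, at 13.8, 29.1 and 4.71 CPM in Aged replicates 1, 2 and 3, against 1.74, 2.87 and 3.84 CPM in Young replicates 1, 2 and 3 (limma log2 fold change 1.88, adjusted p = 0.00282). The Aged libraries were spread widely, and the lowest was close to the highest Young library. Among chains that pair with these receptors, Il13ra1 was at 0 in every library and Il13ra2 had reads in Aged replicate 2 alone (0.767 CPM). Crlf2, the TSLP receptor chain that pairs with Il7r, was at 89.6, 95.8 and 74.4 CPM in Aged replicates 1, 2 and 3, against 96.9, 90.1 and 81.8 CPM in Young replicates 1, 2 and 3, and did not pass (adjusted p = 0.767).

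Among the kinases and STATs behind the receptors, 1 of 7 tested members fell in aged cells and 0 rose, where 12.5% of all genes were called lower and 16.2% higher. Jak3, the kinase that the common gamma chain binds, was at 14.9, 18.8 and 16.5 CPM in Aged replicates 1, 2 and 3, against 31.7, 23.3 and 26.1 CPM in Young replicates 1, 2 and 3, without overlap. It fell by 0.66 ± 0.18 (SE) on the log2 scale (limma adjusted p = 0.00947), and the call was lost without Young replicate 1 (-0.54, adjusted p = 0.0722). Jak1, the kinase that some partner chains recruit, was at 593, 488 and 592 CPM in Aged replicates 1, 2 and 3. Young replicates 1, 2 and 3 were at 650, 622 and 627 CPM. Every Aged library was below every Young library, but Jak1 did not pass (-0.19, limma adjusted p = 0.0518), while edgeR called it lower (-0.24, adjusted p = 0.0141), which made its count 2 of 7. The other 5 did not pass, with log2 fold changes of 0.06 for Stat5a, -0.23 for Stat5b, -0.11 for Stat3 and -0.14 each for Stat6 and Tyk2.

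Feedback inhibitors of the pathway included 3 that rose and 1 that fell among 12 tested, where 16.2% of all genes were called higher and 12.5% lower. Cish, a STAT5-induced inhibitor of cytokine receptor signalling, was at 244, 249 and 226 CPM in Aged replicates 1, 2 and 3, against 192, 176 and 159 CPM in Young replicates 1, 2 and 3, without overlap. It rose by 0.45 ± 0.08 (SE) on the log2 scale (limma adjusted p = 0.000323). Socs1, which inhibits Janus kinases, was at 144, 172 and 127 CPM in Aged replicates 1, 2 and 3, against 87.8, 84.4 and 128 CPM in Young replicates 1, 2 and 3. Socs1 rose by 0.57 (adjusted p = 0.00285), although Young replicate 3 lay within the Aged range. Socs3 was at 41.8 ± 8.93 CPM in Aged and 26.8 ± 2.96 CPM in Young libraries (SD, n = 3 each) and rose by 0.61 (limma adjusted p = 0.00883), a call lost without Aged replicate 2 (0.48, adjusted p = 0.0578). Ptpn6, which encodes the phosphatase SHP-1, was at 43.9 ± 10.2 CPM in Aged and 66.8 ± 5.14 CPM in Young libraries and fell by 0.62 (limma adjusted p = 0.00335). The other 8, Socs2 among them at 179 CPM in Aged and 163 CPM in Young libraries, did not pass.

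Genes linked to STAT5 moved in both directions, with 6 of 15 tested members higher and 5 lower, where 16.2% of all genes were called higher and 12.5% lower. The list shares Cish, Socs1, Socs2 and Socs3 with the feedback list. Gzmb, a granule protease of killer cells, was at 5573, 6155 and 4771 CPM in Aged replicates 1, 2 and 3, against 3856, 3896 and 3842 CPM in Young replicates 1, 2 and 3 (log2 fold change 0.50, limma adjusted p = 9.24e-06). Ccnd2, which encodes cyclin D2, was at 2619, 2739 and 2537 CPM in Aged replicates 1, 2 and 3, against 3482, 3509 and 3818 CPM in Young replicates 1, 2 and 3, and fell by 0.45 (adjusted p = 1.62e-06). Lta, the lymphotoxin alpha gene, fell by 1.23 (adjusted p = 1.57e-05), at 27.2 ± 7.22 CPM in Aged and 63.6 ± 6.32 CPM in Young libraries. Pim2, Bcl2 and Ccnd3 made up the other genes that fell. Myc and Osm, a growth regulator and a cytokine, rose by 0.61 and 0.59 (adjusted p = 0.0161 and 0.00849), but neither was called by DESeq2 (0.57 and 0.58), and without Aged replicate 2 the count that rose was 3, with Myc, Osm and Socs3 lost. Myc was also lost without Aged replicate 3 and Young replicates 1 or 2 (0.52, 0.49 and 0.54). The median log2 fold change of the list was 0.14, with 0.03 over all genes. Among 8 tested adaptors Grb2 rose (0.23, adjusted p = 0.0148) and the PI3 kinase subunit Pik3r1 fell (-0.24, adjusted p = 0.0295), shares near those over all genes. The call of Grb2 was lost with edgeR (0.17, adjusted p = 0.0625), DESeq2, limma-voom and each rescaling, and without Aged replicate 3 (0.21), and that of Pik3r1 without any one of Aged replicates 1 and 2 and Young replicates 1 and 2 (-0.24, -0.19, -0.23 and -0.22). Gab2 and Shc1 did not pass (-0.29 and 0.19).

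**Figure D4:**
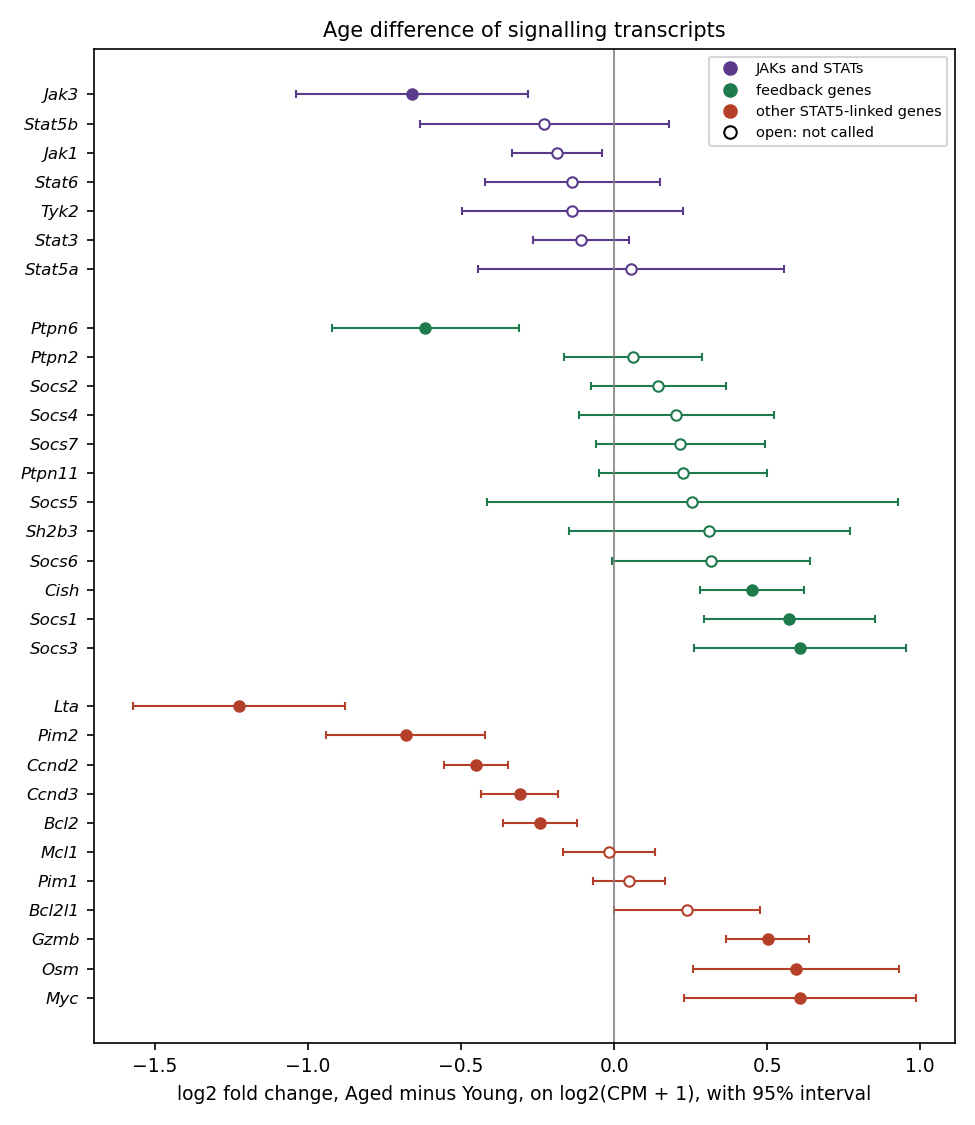
Log2 fold change, Aged minus Young, on log2(CPM + 1) (horizontal axis) with its 95% interval for the kinases and STATs (violet), feedback genes (green) and further STAT5-linked genes (red); filled points passed the limma test and open points did not. Jak3 lies below 0, Cish, Socs1 and Socs3 above 0, and the STAT5-linked genes lie on both sides.

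Transcription factors known to act on these receptor genes, mostly from studies of mouse T cells, included 4 that fell and 1 that rose among 11 tested, where 12.5% of all genes were called lower and 16.2% higher. Foxo1, an activator of Il7r, was at 56.8, 40.3 and 49.4 CPM in Aged replicates 1, 2 and 3, against 107, 103 and 93.0 CPM in Young replicates 1, 2 and 3, and fell by 1.04 ± 0.12 (SE) on the log2 scale (limma adjusted p = 3.21e-06). Foxp1, which opposes FOXO1 at Il7r, was at 113 ± 34.8 CPM in Aged and 267 ± 22.1 CPM in Young libraries and fell by 1.28 (adjusted p = 2.04e-06). Klf2, a target of FOXO1, was at 1.94 ± 0.409 CPM in Aged and 43.0 ± 14.3 CPM in Young libraries (adjusted p = 7.21e-09), with the Aged values near the 3 reads that a count of 0 allows. Runx3, a factor of the CD8 lineage, fell by 0.44 (adjusted p = 2.46e-05), at 437 ± 15.8 CPM in Aged and 593 ± 29.7 CPM in Young libraries. Gfi1, a repressor of Il7r, was at 16.6 ± 1.63 CPM in Aged and 17.5 ± 2.77 CPM in Young libraries and did not pass (adjusted p = 0.848). Of the T-box factors that act on Il2rb, Tbx21 did not pass (0.02), and Eomes rose by 0.35 (adjusted p = 0.0112), a call lost without Aged replicate 3 (0.23) or Young replicate 3 (0.27) and with DESeq2 (0.31).

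Receptors of other cytokines were set beside the common gamma chain family. Of 25 listed, 20 were tested, and of these 10 fell and 0 rose in aged cells, with a median log2 fold change of -0.59, beside 0 of 7 and -0.12 for the common gamma chain receptors and 12.5% called lower over all genes. The difference between the lists was not tested, and with edgeR it was 10 of 20 and a median of -0.71 beside 2 of 7 and -0.17. The groups did not overlap for 13 of the 20, all lower in aged cells, and for 2 of the 7, where 18.3% of all genes were lower without overlap. The summed level of the 25 was 670 to 686 CPM in Aged and 1123 to 1126 CPM in Young libraries, and that of the 8 common gamma chain receptors 2675 to 2981 CPM in Aged and 2901 to 3107 CPM in Young, so the groups overlapped in the sum for the common gamma chain receptors and not for the other receptors. Il18r1, an IL-18 receptor chain, was at 33.8, 19.9 and 49.9 CPM in Aged replicates 1, 2 and 3, against 190, 201 and 177 CPM in Young replicates 1, 2 and 3 (log2 fold change -2.51, limma adjusted p = 2.83e-08). Ifngr1 and Ifnar2, chains of the interferon gamma and type I interferon receptors, fell by 0.77 and 0.96 (adjusted p = 2.13e-07 and 1.90e-05). Il17ra fell by 0.67 (adjusted p = 0.000115). Il12rb1, a chain of the IL-12 receptor, did not pass, with a log2 fold change of 0.02 (95% interval -0.22 to 0.27).

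**Figure D5:**
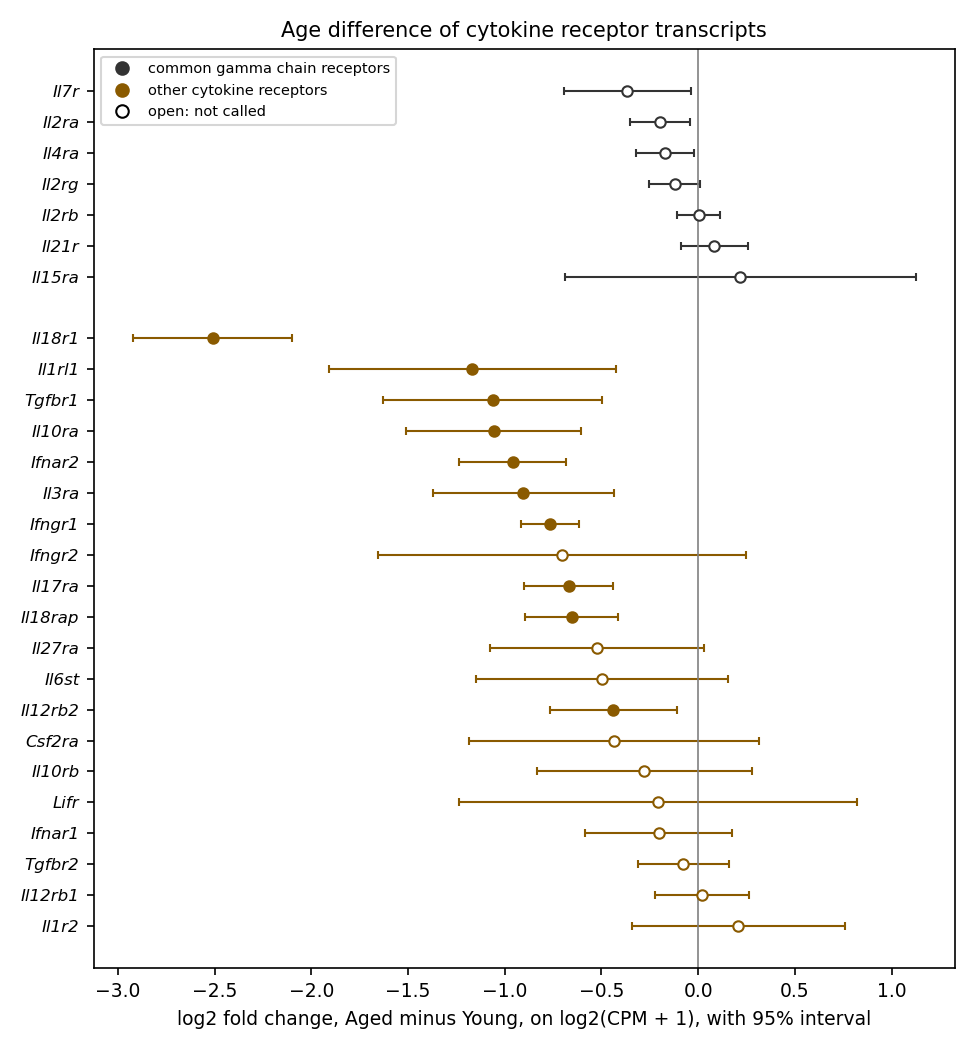
Log2 fold change, Aged minus Young, on log2(CPM + 1) (horizontal axis) with its 95% interval for the 7 common gamma chain receptors tested (black) and 20 other cytokine receptors (brown); filled points passed the limma test and open points did not. The common gamma chain receptors lie between -0.37 and 0.22, all open, and 10 of the other receptors are filled and below 0.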

How the data were processed

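RNA was measured in 6 libraries of cultured mouse CD8 T cells, 3 Aged and 3 Young, grouped and numbered by the sample titles. Libraries were made with the QuantSeq 3' kit, per the labels' protocols, and the genome build was GRCm38 (mm10) by the submitters' processing notes. The choice of aligner, counter, annotation and strand is not given in the sources used here. Deposited values are CPM by the authors: each column sums to the same total, and 100% of values were whole reads within 0.001 reads, so reads were recovered. The deposited files list 25655 identifiers, of which 1 has a blank value and was left out. The file of Aged replicate 2 names its column as replicate 3 and was taken as replicate 2 from the record that ties files to samples.

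Genes whose mean over the libraries reached 1 CPM were tested with limma 3.58.1 (R 4.3.3, intensity trend) on log2(CPM + 1), two-sided, with age group as the sole term and adjusted p under 0.05 as the call. The alternatives were edgeR 4.0.16 (quasi-likelihood), DESeq2 1.42.0 and limma-voom on recovered reads, RLE, TMM and upper-quartile scaling, pseudocounts of 0.1 and 5, no filter and a filter at a mean of 5 CPM, the replicate number as a block, and each library left out. The fit was tested on simulated data with the same dispersion for every gene, and the outcome is not reported here. Members and gene lists were chosen with earlier results of these data known. Named were all members, ligands, partner chains, listed kinases and STATs, called feedback genes, up to 4 genes of smallest p in each other list, CD8 genes and the most abundant gene of each other marker list. Some listed genes are not reported here. Any other gene was named after its values were seen. The rule to name genes of like profile held for called members, of which there were 0. PCR reads without molecular identifiers are not independent molecules, and the Poisson bounds and read floors cover counting error only. The limma intervals rest on the spread between libraries. Symbols, promoters and positions came from tables of GRCm38.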

Additional observations from a re-analysis of the deposited data

How the results depend on the processing

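The count of receptors called lower, 0 as reported, was 2 with RLE scaling and edgeR, 3 with TMM scaling, upper-quartile scaling and limma-voom, 1 with DESeq2 and 0 to 2 with a library left out, and 0 receptors were called higher in any setting. The cause was not tested. The log2 fold change of Il2ra passed at -0.25 (RLE, TMM, limma-voom) and -0.24 (upper-quartile, edgeR, DESeq2), with a range of -0.30 to -0.13 when a library was left out. Il4ra passed at -0.22 (RLE, upper-quartile) and -0.23 (TMM, edgeR, limma-voom), with a range of -0.21 to -0.13. Il7r passed at -0.42 (TMM) and -0.41 (upper-quartile), with a range of -0.58 to -0.17, and Il2rg at -0.17 (limma-voom), with a range of -0.15 to -0.09. Il2rb was 0.00 as reported and turned to -0.047 (RLE), -0.051 (TMM, edgeR), -0.046 (DESeq2), -0.050 (limma-voom) and -0.042 (upper-quartile), with a range of -0.027 to 0.037 when a library was left out. Il15ra ranged from -0.043 to 0.61 and Il21r from 0.04 to 0.16. The ratio differences to Il2rg kept their signs in every setting. Over all genes 1701 were called higher and 1313 lower, with DESeq2 944 and 1014, with edgeR 1443 and 1555, and 1323 to 1553 and 1010 to 1193 with a library left out.

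With the replicate number as a block, Il2ra passed at -0.20 and 1 receptor was called lower, against 0 without it, and over all genes 1725 were called higher and 1336 lower. The labels tie same-numbered Aged and Young samples by the number alone. Deviations of same-numbered Aged and Young libraries correlated at r = -0.0131, 0.00463 and -0.0162 over genes, and no Aged library correlated best with its own number. Such values cannot exclude a batch shared by number. Depth limits Il15ra and Il9r, at 0 to 10 reads per library.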

Other observations

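Genes of like profile were looked up for Il2ra and Il7r after their values were seen, although neither was called. Among genes whose mean reached 5 CPM, the nearest to Il2ra by root mean square difference of centred log2(CPM + 1) over the 6 libraries were Ucp2 (0.0338), a mitochondrial carrier, Cdc14a (0.0439), a phosphatase, and Cept1 (0.0501), an enzyme of phospholipid synthesis. The nearest to Il7r were Nck2 (0.106), an adaptor protein, Ccdc92 (0.115) and Hectd3 (0.115), a ubiquitin ligase. By this measure Il2ra was the 60th nearest gene to Il7r and Il7r the 2262nd nearest to Il2ra (0.212), since Il7r varied more widely over the libraries that the pair ordered alike.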
